A study of Homo sapiens with 80 samples.

Results

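The DLK1-MEG3 cluster is a block of imprinted genes on the long arm of human chromosome 14. The 6 genes described here, DLK1, RTL1, DIO3, MEG3, MEG8 and MEG9, are 6 of the 43388 genes in both deposited expression tables. They were chosen by their values in these data, namely the level of each gene in each cell line and the direction of the difference between purity classes on days 4 and 16. Levels by line and the differences on days 4 and 16 are therefore given as descriptions with no test. Tests were made on the other days, on changes over time that use neither of those days, and on the classes and stages of a separate experiment. That experiment also gave levels by line and includes day 4 of WTC11, so its tests are not independent of the choice.

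RNA was measured in 80 libraries of human pluripotent stem cells during differentiation to cardiomyocytes, with CHIR99021, which activates WNT signalling, from day 0 and IWP2, which blocks WNT secretion, from day 2 or 3. The purity class, high or low, rests on the share of cells with cardiac troponin T on day 16. A multi-omic experiment gave 56 poly(A) libraries of the induced pluripotent line WTC11: 25 wells of 1 high purity differentiation at passage 52 and 31 wells of 1 low purity differentiation at passage 69. Both classes had 4 wells each on days 0, 2, 4 and 6. The high class then had 3, 1, 2 and 3 wells on days 8, 10, 13 and 16, and the low class 4, 4, 4 and 3. An RNA-only experiment gave 24 total RNA libraries, with 1 high and 1 low purity differentiation of WTC11, of IMR90-4, another induced pluripotent line, and of H9, an embryonic stem cell line. Each was sampled once at 4 stages, which were days 0, 2, 4 and 6 for WTC11 and days 0, 3, 5 and 7 for the other lines. Passages were 81 for the high and 69 for the low class of WTC11, 55 and 75 for IMR90-4, and 58 and 55 for H9. The labels name no genetic change in any line. Class, passage and differentiation cannot be told apart in the multi-omic experiment, and p-values there measure only the spread between wells of the same differentiation.

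Imprinted genes are expressed mainly from the allele of 1 parent. In this cluster DLK1, RTL1 and DIO3 are known as genes of the paternal allele and code for proteins, whereas MEG3, MEG8 and MEG9 are known as non-coding RNAs of the maternal allele, read in the same direction as many small nucleolar RNAs (snoRNAs) and microRNA (miRNA) hairpins. DLK1 is a membrane protein related to the Notch ligands, RTL1 derives from a retrotransposon and is known from placenta and muscle, and DIO3 is the deiodinase that inactivates thyroid hormone. Loss of the maternal RNAs of this cluster is a known variation between human pluripotent lines.

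In RefSeq on GRCh38.p14 the genes lie along 837 kb in the order DLK1 (chr14:100726892-100738224), MEG3 (chr14:100826108-100861026), RTL1 (chr14:100879753-100903722), MEG8 (chr14:100889649-100999113), MEG9 (chr14:101069911-101072937) and DIO3 (chr14:101561495-101563452). RTL1 lies on the minus strand and shares 14074 bases with MEG8 on the plus strand. All 41 snoRNA genes of the cluster that are in the tables lie within the span of MEG8, and 43 of the 54 miRNA hairpins in the tables lie beyond its end. The strand setting of the counting is not given in the sources used here. Reads of RTL1 and MEG8 in the shared stretch therefore cannot be told apart. Elsewhere in RTL1, reads may also come from RNA of the opposite strand.

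The miRNAs read from the strand opposite to RTL1 are shown because their sequences run against its transcript. RefSeq places 5 hairpins with 10 mature miRNAs inside RTL1, from base 100881026 to base 100884771, outside the stretch shared with MEG8, and the reverse complement of each of the 10 was found in an RTL1 transcript of GENCODE v29. Capitals mark the seed, bases 2 to 8:
miR-431-5p: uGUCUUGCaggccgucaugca
miR-431-3p: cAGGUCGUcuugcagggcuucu
miR-433-5p: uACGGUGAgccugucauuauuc
miR-433-3p: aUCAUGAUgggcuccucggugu
miR-127-5p: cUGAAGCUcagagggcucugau
miR-127-3p: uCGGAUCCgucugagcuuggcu
miR-432-5p: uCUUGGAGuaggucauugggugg
miR-432-3p: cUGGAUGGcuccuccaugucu
miR-136-5p: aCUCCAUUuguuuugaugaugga
miR-136-3p: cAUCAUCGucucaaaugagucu
No seed is shared among these 10. The cluster held 94 different mature miRNAs, 4 of them listed at 2 hairpins each, with 83 different seeds. Of these seeds 10 were shared by 2 or more different miRNAs. The seed GGUUGUC was shared by miRNAs of 3 hairpins:
miR-494-5p: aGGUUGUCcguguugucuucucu
miR-323b-5p: aGGUUGUCcguggugaguucgca
miR-410-5p: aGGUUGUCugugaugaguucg
All 5 hairpins inside RTL1 had 0 reads in each of the 80 libraries, as did MIR770, the only hairpin inside MEG3. A count of 0 in a library can still arise where as many as 3 reads are expected. Reads that also overlap RTL1 or MEG3 may have been left out of the hairpin counts, as the handling of such reads is not described here. These 0 counts therefore do not show that no RNA came from the hairpins. MIR370, inside MEG8, had reads in 46 of the 56 multi-omic libraries. Libraries of these kits do not measure mature miRNAs, and reads on a hairpin come from longer RNA.

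The RefSeq promoter windows, 250 bases before to 50 after a gene's start, are shown for MEG3, which was near 0 in 2 of the 3 lines, and for DIO3, which was not. Capitals mark TATAAA and TGCCGC, the core of the known motif of the imprint protein ZFP57, on either strand. RefSeq gives 3 windows for MEG3, of which the first is shown. The windows are chr14:100825858-100826157 (plus strand) for MEG3 and chr14:101561245-101561544 (plus strand) for DIO3:
MEG3: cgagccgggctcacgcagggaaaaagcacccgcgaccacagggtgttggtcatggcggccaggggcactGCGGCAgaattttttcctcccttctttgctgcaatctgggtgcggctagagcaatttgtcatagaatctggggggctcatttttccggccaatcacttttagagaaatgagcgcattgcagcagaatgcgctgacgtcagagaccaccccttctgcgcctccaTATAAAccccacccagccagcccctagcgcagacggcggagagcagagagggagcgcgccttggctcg
DIO3: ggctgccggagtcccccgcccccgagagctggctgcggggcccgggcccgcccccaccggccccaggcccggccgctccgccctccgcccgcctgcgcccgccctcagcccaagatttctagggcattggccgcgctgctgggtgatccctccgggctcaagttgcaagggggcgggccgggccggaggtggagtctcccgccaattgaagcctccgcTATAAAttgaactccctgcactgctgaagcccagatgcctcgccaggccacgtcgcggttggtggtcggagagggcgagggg
TATAAA was in both windows, and in 11.5% of 35116 promoter windows of this length. TGCCGC was in the MEG3 window, read on the minus strand as GCGGCA here, and in 16.7% of all windows. Neither motif was in the RTL1 or MEG9 window. The dinucleotide CG occurred 19 times in the MEG3 window, 28 times in that of DIO3, 6 times in that of RTL1 and 4 times in that of MEG9, against a median of 14.

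Depth ranged from 6579715 to 18143597 reads per library in the multi-omic experiment, recovered from the deposited TPM, a level scaled to gene length and library size, and from 17990882 to 40357968 in the RNA-only experiment. Mean multi-omic depth was greater in the high class on day 0 (14499226 against 8464411 reads) and day 6 (11919176 against 8137879). It was smaller on day 13 (9024488 against 12574959) and similar on day 16 (12796479 against 12869911). The part of depth in the differences was not tested. The summed level of 6 pluripotency markers was 3707 to 4641 TPM on day 0. The summed level of 6 cardiomyocyte markers on day 16 was 9929 to 11973 TPM in the high class and 3603 to 5353 TPM in the low class. The deposited multi-omic count and TPM tables name their libraries differently: of 56 TPM columns 0 matched the count column of the same name, 50 matched one of another name and 6 matched none. The names of the TPM table were used, since the nearest library was of the same class and day for 52 of 55 TPM columns and 28 of 55 count columns. Under the names of the count table the day 6 calls went from 4 to 1, the calls for the change from day 0 to day 13 from 4 to 0, and DLK1 changed direction on days 8 and 16, to -1.63 and 2.25. All multi-omic results below rest on the names of the TPM table. All 6 cluster genes passed the filter on low values in both experiments. A gene was called in a comparison at a Benjamini-Hochberg adjusted p under 0.05 over all genes fitted and a difference of at least 1 on the log2 scale. Multi-omic fold changes were fitted with limma on log2(TPM + 1), a scale that understates the change of low genes. Bulk values do not tell fewer cells of a type from less RNA per cell.

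On day 0 the non-coding RNAs were higher in the high class by less than the fold required for a call. MEG8 stood at 50.6, 50.4, 53.3 and 47.1 TPM in the 4 high purity wells and at 24.3, 26.7, 24.7 and 27.2 TPM in the 4 low purity wells. MEG3 stood at 28.9, 30.1, 28.6 and 28.9 TPM against 20.9, 15.4, 15.4 and 18.5 TPM. MEG9 was at 2.07 TPM ± 0.289 (SD, n = 4) against 0.678 TPM ± 0.112 (SD, n = 4). No low purity well reached a high purity well in any of the 3. The fitted differences were 0.87 (SE 0.120) for MEG8, 0.64 (SE 0.132) for MEG3 and 0.85 (SE 0.178) for MEG9 on the log2 scale, with limma adjusted p of 1.3e-06, 0.00056 and 0.0007. RTL1 was also higher in every high purity well, at 3.22 to 4.07 TPM against 2.53 to 2.76 TPM, with a difference of 0.24 (SE 0.203) that did not pass the test. Among all genes fitted 16.7% had every high purity well above every low purity well on day 0. DLK1 was under 1 TPM in all 8 wells, and DIO3 had 0 reads in 7 of them and 1 read in the other. Of the 6 genes, 0 were called by limma on day 0, where 1.03% of all genes were. At an unadjusted p under 0.05 there were 3, and edgeR and DESeq2 on recovered reads each called 1, MEG9. Calls over all genes also rose under alternative settings, from 264 to between 643 and 764.

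Between days 0 and 2 the falls of MEG8 and RTL1 were called in both classes, and that of MEG3 in the low class. The summed level of the 5 mesendoderm markers went over these days from 1.04 to 2.07 TPM to 1588 to 2062 TPM. MEG8 went from 50.3 ± 2.56 to 19.0 ± 0.706 TPM (SD, n = 4 each) in the high class and from 25.7 ± 1.44 to 9.89 ± 0.898 TPM in the low class. These were differences of -1.33 (SE 0.120) and -1.42 (SE 0.120), with limma adjusted p of 3.3e-13 and 5.4e-14. RTL1 went from 3.49 ± 0.389 to 1.17 ± 0.326 TPM in the high class and from 2.65 ± 0.0957 to 0.561 ± 0.284 TPM in the low class. Both falls were called, at -1.05 (SE 0.203, adjusted p = 2.1e-05) and -1.33 (SE 0.203, adjusted p = 2.6e-07). MEG3 went from 17.5 ± 2.66 to 8.68 ± 1.15 TPM in the low class, a called fall of -1.05 (SE 0.132, adjusted p = 3.5e-09). In the high class it went from 29.1 ± 0.658 to 18.1 ± 1.74 TPM. That fall of -0.64 (SE 0.132, limma adjusted p = 6.1e-05) was under the fold for a call. So were the falls of MEG9, at -0.63 (adjusted p = 0.0024) in the high class and -0.47 (adjusted p = 0.024) in the low class. In the high class 2 of the 6 genes were called against 16.6% of all genes, and in the low class 3 of 6 against 17.7%, all of them lower. The RTL1 call in the high class was lost without well 4 of day 0 or without well 1 of day 2, at -0.985 and -0.931. The MEG3 call in the low class was lost without well 1 of day 0 or of day 2, at -0.970 and -0.9997, just under the fold, and with no scaling between libraries, at -0.93.

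**Figure D1:**
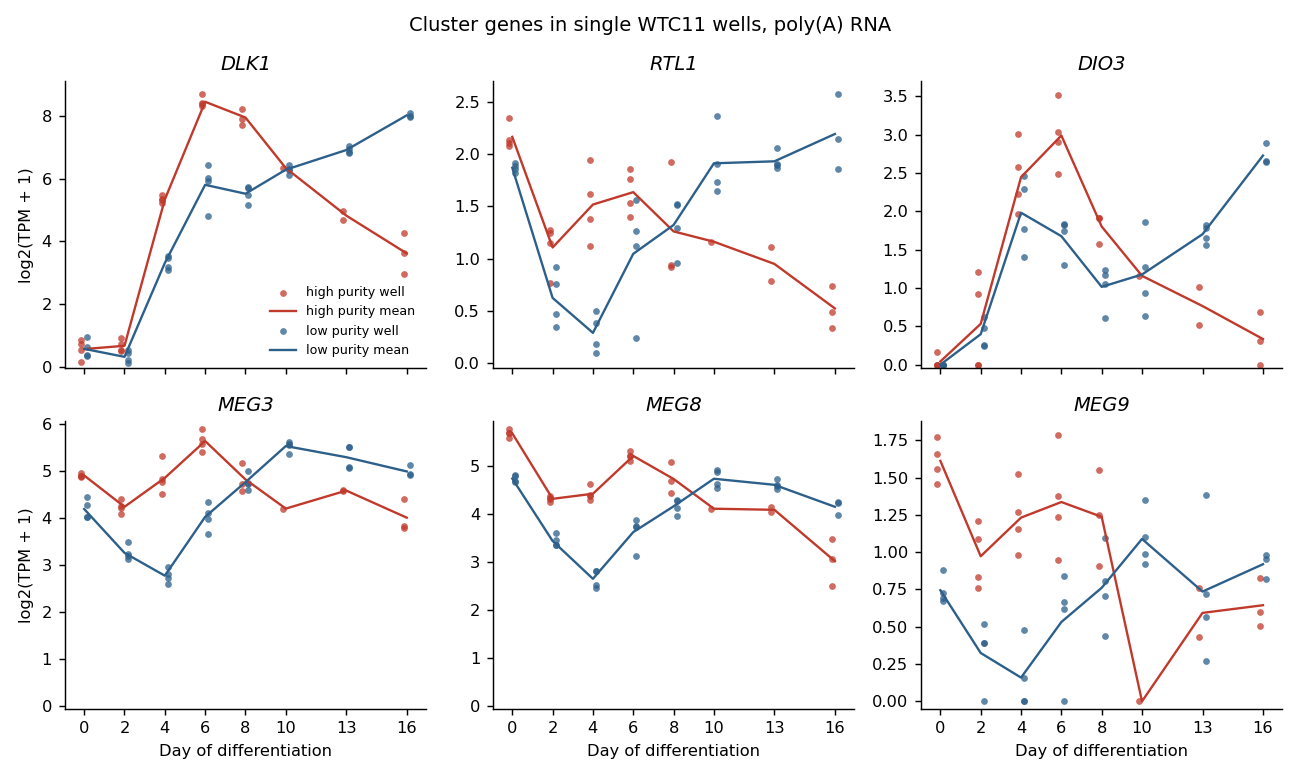
Level of each gene, as log2(TPM + 1), by day of differentiation in single WTC11 wells of the poly(A) experiment. Points are wells, lines join class means, red is high purity and blue is low purity. The high purity wells of DLK1 lie above the low purity wells on day 6 and below them on day 16.

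On day 2 the RNAs kept the order of the classes. MEG3 was at 20.3, 16.1, 18.2 and 17.6 TPM in the high purity wells and at 7.77, 8.15, 10.4 and 8.43 TPM in the low purity wells. Its difference was 1.06 (SE 0.132, limma adjusted p = 1.0e-08) and was called, and it was the only call among the 6 genes, against 5.34% of all genes. MEG8 had wells of 18.0 to 19.7 TPM against 9.21 to 11.1 TPM and a difference of 0.95 (SE 0.120, adjusted p = 1.2e-08). MEG9 was at 0.978 ± 0.290 against 0.263 ± 0.184 TPM. With no scaling between libraries the MEG3 difference was 0.98 and not called. edgeR and DESeq2 on recovered reads each called 4 of the 6. Calls over all genes also rose under alternative settings, from 1371 to between 2676 and 2734. Markers also differed on that day. The pluripotency markers summed to 2055 to 2330 TPM in the high class and 1209 to 1260 TPM in the low class, with 3 of the 6 called higher, NANOG at 2.35, SOX2 at 2.22 and DPPA4 at 1.03. The 5 endothelial markers summed to 194 to 226 and 60.2 to 82.1 TPM, with 1 of 5 called, KDR at 1.64. Their part was not tested.

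Day 4 was one of the days on which the genes were chosen. DLK1 had appeared by then in both classes, at 36.2, 38.7, 43.4 and 40.0 TPM in the high purity wells and at 7.48, 10.0, 10.5 and 8.11 TPM in the low purity wells. MEG3 was at 21.9, 26.5, 38.9 and 27.6 TPM in the high class and at 5.68, 6.08, 6.78 and 5.08 TPM in the low class, the lowest of its levels in that class over all days. MEG8 wells ranged from 18.7 to 23.8 TPM against 4.49 to 6.05 TPM. RTL1 wells ranged from 1.18 to 2.84 TPM against 0.0730 to 0.413 TPM, or 25 to 48 reads against 1 to 5. For these 4 genes and for MEG9 no low purity well reached a high purity well, whereas those of DIO3 overlapped, at 2.92 to 7.08 TPM against 1.65 to 4.51 TPM. Of all genes fitted 15.9% had the high class wholly above on that day, and since the genes were chosen on it nothing is read from the count. The fitted differences were 2.08 for MEG3, 2.03 for DLK1, 1.77 for MEG8, 1.19 for RTL1 and 0.46 for DIO3. RNA levels of cell type markers also differed on that day. The 6 cardiomyocyte markers summed to 59.7 to 84.9 TPM in the high class and to 1039 to 1196 TPM in the low class, and the 5 mesendoderm markers to 119 to 148 TPM and 19.5 to 24.8 TPM. The 6 markers of fibroblasts and stroma summed to 276 to 424 and 1138 to 1202 TPM. TNNT2, the troponin gene behind the purity class, was at 457 to 524 TPM in the low purity wells of day 4, and at 0.613 to 2.78 TPM in the 2 WTC11 total RNA libraries of day 4. The part of these markers in the differences was not tested.

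From day 2 to day 6 the rises of DLK1 and DIO3 were called in both classes, and that of MEG3 in the high class. The rise of DLK1 was the largest difference of the 6 genes in any comparison tested. In the high class DLK1 went from 0.607 ± 0.229 TPM to 352 ± 40.8 TPM (SD, n = 4 each), a difference of 7.64 (SE 0.203, limma adjusted p = 3.8e-32). In the low class it went from 0.257 ± 0.165 to 59.4 ± 24.3 TPM, a difference of 5.37 (SE 0.203, adjusted p = 2.2e-26). DIO3 rose from 0.551 ± 0.659 to 7.21 ± 2.46 TPM in the high class (2.34, SE 0.239, adjusted p = 1.5e-11) and from 0.325 ± 0.170 to 2.23 ± 0.517 TPM in the low class (1.20, SE 0.239, adjusted p = 3.0e-05). MEG3 rose by 1.22 (SE 0.132, adjusted p = 7.3e-11) to 49.5 ± 7.17 TPM in the high class. Its rise in the low class, 0.66 (SE 0.132, limma adjusted p = 3.2e-05), was under the fold for a call. So was that of MEG8 in the high class, at 0.71 (SE 0.120, adjusted p = 1.8e-06). Of the 6 genes, 3 were called in the high class, against 18.2% of all genes, and 2 in the low class, against 20.5%, all of them higher on day 6.

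Of the 5 days tested, day 6 had the most calls between the classes by limma. DLK1 was at 342, 331, 322 and 412 TPM in the high purity wells and at 64.4, 86.0, 60.2 and 27.2 TPM in the low purity wells. MEG8 was at 36.2, 35.8, 38.9 and 33.3 TPM against 12.5, 13.8, 12.3 and 7.70 TPM. MEG3 was at 50.4, 47.0, 41.6 and 58.7 TPM against 16.5, 19.2, 14.9 and 11.7 TPM. The lowest high purity well stood above the highest low purity well for each of these genes. DIO3, at 6.50, 10.5, 7.22 and 4.61 TPM against 1.47, 2.58, 2.53 and 2.34 TPM, showed the same separation, which 16.2% of all genes fitted had on day 6. The differences were 2.65 (SE 0.203, limma adjusted p = 9.8e-15) for DLK1, 1.61 (SE 0.132, adjusted p = 8.1e-14) for MEG3, 1.58 (SE 0.120, adjusted p = 7.5e-15) for MEG8 and 1.29 (SE 0.239, adjusted p = 1.9e-05) for DIO3. All 4 were called as higher in the high class, against 8.93% of all genes called in either direction. MEG9, at 1.58 ± 0.641 against 0.478 ± 0.337 TPM, and RTL1, at 2.13 ± 0.453 against 1.17 ± 0.736 TPM, had differences of 0.77 and 0.57, under the fold for a call. The cardiomyocyte markers summed to 2219 to 4338 TPM in the high class and 1239 to 2545 TPM in the low class on day 6, and those of fibroblasts and stroma to 710 to 973 and 2513 to 3910 TPM. The pluripotency markers summed to 1071 to 1262 and 413 to 574 TPM, the endothelial ones to 266 to 317 and 227 to 298 TPM, the 5 endoderm markers to 741 to 1153 and 295 to 473 TPM, and the 4 epicardial markers to 3.95 to 4.70 and 63.6 to 118 TPM. Higher in the high class were 2 cardiomyocyte, 3 pluripotency, 4 endothelial and 3 endoderm markers, and lower were 1 cardiomyocyte, 1 endoderm, 4 stromal and 3 epicardial markers. Their part was not tested.

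Between days 6 and 8 none of the 6 genes was called by limma in either class, against 5.66% of all genes in the high class and 3.32% in the low class. At an unadjusted p under 0.05 there were 2 in the high class and 3 in the low class. On recovered reads edgeR and DESeq2 each called 1 of the 6 in the high class and 0 in the low class. Calls over all genes also rose under alternative settings, from 1452 to between 2527 and 2776 in the high class. In the low class they rose from 852 to between 1667 and 1709. MEG3 stood at 27.9 ± 6.33 TPM (SD, n = 3) on day 8 in the high class, a difference from day 6 of -0.56 (SE 0.143, limma adjusted p = 0.0018). In the low class it stood at 26.5 ± 3.47 TPM (SD, n = 4), a difference of 0.73 (SE 0.132, adjusted p = 2.9e-05). Both were under the fold for a call. On day 8 DLK1 was at 301, 237 and 211 TPM in the high class and at 34.9, 52.9, 51.2 and 43.2 TPM in the low class, a called difference of 2.70 (SE 0.219, adjusted p = 4.7e-14). It was the only call of the 6, against 12.3% of all genes. MEG3 wells of the classes overlapped, at 23.0 to 35.0 against 23.2 to 31.4 TPM, and the difference of 0.33 (SE 0.143) had an adjusted p of 0.06. MEG8 was still higher in the high class, at 20.6 to 32.7 against 14.5 to 18.6 TPM (0.83, SE 0.130, adjusted p = 6.8e-07), under the fold for a call. DIO3, at 2.51 ± 0.452 (n = 3) against 1.05 ± 0.365 TPM (n = 4), differed by 0.955 (SE 0.259, adjusted p = 0.0021), and it was called on recovered reads, at 1.49 with edgeR and 1.50 with DESeq2. On that day the cardiomyocyte markers summed to 8645 to 10068 TPM in the high class and 2993 to 4832 TPM in the low class, those of fibroblasts and stroma to 416 to 513 and 3950 to 4855 TPM, the endothelial markers to 159 to 208 and 173 to 198 TPM, the endoderm markers to 749 to 1457 and 206 to 351 TPM, and the epicardial markers to 3.63 to 5.12 and 225 to 272 TPM. Higher in the high class were 5 of 6 cardiomyocyte, 4 of 5 endothelial and 3 of 5 endoderm markers, and lower were 5 of 6 stromal, 3 of 4 epicardial and 1 of 5 endoderm markers. Their part was not tested.

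The order of the classes turned after day 8. On day 10 the only high purity well had 80.1 TPM of DLK1, within the 68.6 to 86.1 TPM of the 4 low purity wells. It had 17.5 TPM of MEG3 against 40.6 to 48.6 TPM, and 16.3 TPM of MEG8 against 22.2 to 29.0 TPM. No test was made with 1 well.

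By day 13 DLK1 had fallen in the high class and risen in the low class. Its wells were at 24.9 and 30.1 TPM in the high class and at 131, 115, 122 and 111 TPM in the low class. From day 8 this was a fall of -3.13 (SE 0.262, limma adjusted p = 3.7e-13) in the high class and a rise of 1.45 (SE 0.203, adjusted p = 1.5e-07) in the low class. DIO3 also fell in the high class, from 2.51 to 0.724 ± 0.411 TPM (-1.08, SE 0.309, adjusted p = 0.0052). Without the high purity well 2 of day 13 the DIO3 call was lost, at -0.82 (adjusted p = 0.131), and the lone day 13 well was then assumed to vary like the other groups. With a pseudocount of 0.1 it was also lost, at -1.76 (adjusted p = 0.0664). Called were 2 of the 6 genes in the high class, against 8.24% of all genes, and 1 of 6 in the low class, against 5.12%. The difference between classes on day 13 was -1.88 (SE 0.248, adjusted p = 3.4e-08) for DLK1, the only gene of the 6 called, against 10.8% of all genes.

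The other genes stood in the same order on day 13 by smaller amounts. MEG3 was at 23.3 and 22.9 TPM against 44.9, 44.9, 32.9 and 33.0 TPM, a difference of -0.50 (SE 0.162, limma adjusted p = 0.013). MEG8 was at 15.4 and 16.7 TPM against 23.4, 25.5, 21.9 and 22.8 TPM (-0.31, SE 0.147, adjusted p = 0.099). RTL1 was at 1.16 and 0.727 TPM against 2.73, 2.64, 3.16 and 2.72 TPM (-0.85, SE 0.249, adjusted p = 0.0054). DIO3 was at 0.433 and 1.01 TPM against 2.54, 2.43, 2.14 and 1.94 TPM (-0.82, SE 0.293, adjusted p = 0.024). In none of these 4 genes did a high purity well reach a low purity well, and only the wells of MEG9 overlapped. With the 2 high purity wells of that day, 32.5% of all genes fitted had the low class wholly above. edgeR and DESeq2 on recovered reads each called RTL1 as well as DLK1, at -1.37 and -1.38 for RTL1. With no scaling the median of all genes moved to -0.13 on day 13. The markers of fibroblasts and stroma summed on that day to 650 to 815 TPM in the high class and to 7506 to 9701 TPM in the low class, and the 6 cardiomyocyte markers to 8198 to 8392 TPM and 2458 to 4267 TPM. Their part was not tested.

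Whether the classes changed differently from day 0 was tested as an interaction. To day 8 the change of DLK1 was greater in the high class by 2.73 (SE 0.298, limma adjusted p = 5.7e-10), the only call of the 6, against 10.3% of all genes. Over the span to day 13, 4 of the 6 genes had a lower change in the high class, against 10.5% of all genes called in either direction. These were DLK1 at -1.85 (SE 0.321, adjusted p = 1.2e-05), MEG8 at -1.18 (SE 0.190, adjusted p = 3.0e-06), MEG3 at -1.14 (SE 0.209, adjusted p = 2.9e-05) and RTL1 at -1.10 (SE 0.321, adjusted p = 0.0074). MEG3 and MEG8 began in the high class above and ended below the low class. The RTL1 value fell under the fold for a call without high purity well 3 of day 13, at -0.93 (adjusted p = 0.0725), and lost its call with a pseudocount of 0.1, at -1.61 (adjusted p = 0.0511).

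**Figure D2:**
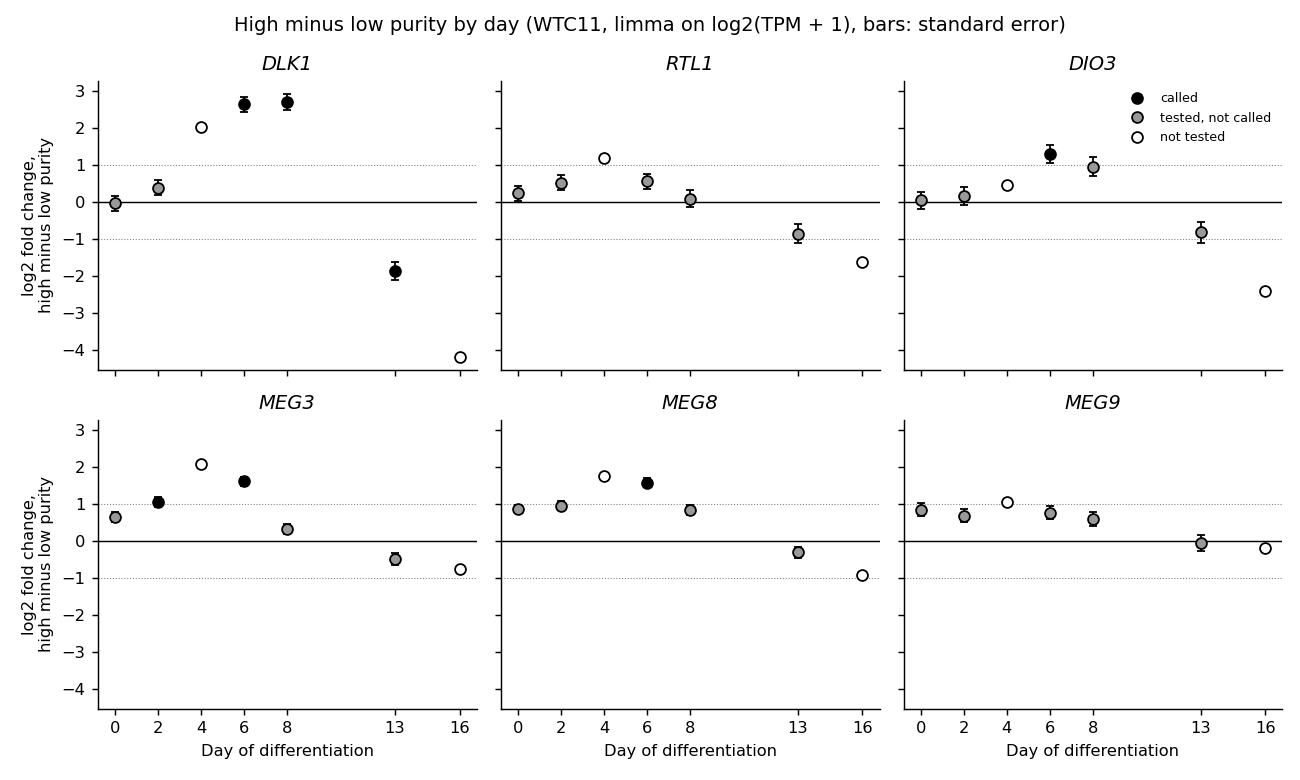
Log2 fold change of high minus low purity for each gene by day in the multi-omic experiment, with standard errors for the tested days. Black points are called, grey points are tested and not called, open points are days 4 and 16, which were not tested, and dotted lines mark the fold for a call; DLK1 runs from 2.65 on day 6 to -1.88 on day 13.

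Day 16 was the other day on which the genes were chosen. DLK1 was at 6.76, 18.4 and 11.4 TPM in the high purity wells and at 272, 255 and 251 TPM in the low purity wells. DIO3 was at 0, 0.610 and 0.243 TPM against 6.39, 5.24 and 5.31 TPM. RTL1 was at 0.262, 0.673 and 0.406 TPM against 4.95, 2.63 and 3.40 TPM. MEG3 was at 12.9, 20.2 and 13.3 TPM against 34.0, 29.3 and 29.9 TPM, and MEG8 at 4.71, 10.2 and 7.38 TPM against 17.7, 14.9 and 18.0 TPM. For these 5 genes every low purity well was above every high purity well, and only MEG9 overlapped. Of all genes fitted 32.1% had the low class wholly above on that day, and nothing is read from the count. The differences were -4.19 for DLK1, -2.41 for DIO3, -1.63 for RTL1, -0.93 for MEG8 and -0.76 for MEG3. DIO3 and RTL1 have few reads, and on recovered reads edgeR gave -4.11 for DIO3 and -2.82 for RTL1. The markers of fibroblasts and stroma summed to 454 to 542 TPM in the high class and 8585 to 11634 TPM in the low class, and the 4 epicardial markers to 9.02 to 11.4 TPM and 219 to 299 TPM. Their part was not tested.

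Each differentiation had its own course. The mean level of DLK1 in the high class was highest on day 6, at 352 TPM, and in the low class on day 16, at 259 TPM. DIO3 was highest on the same days, at 7.21 and 5.65 TPM. MEG3 was highest on day 6 in the high class, at 49.5 TPM, and on day 10 in the low class, at 45.6 TPM. MEG8 was highest on day 0 in the high class, at 50.3 TPM, and on day 10 in the low class, at 25.8 TPM. The low class had its lowest level of MEG3, MEG8, RTL1 and MEG9 on day 4.

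In the total RNA libraries MEG3, MEG8 and RTL1 were high in WTC11 only, while DLK1 and DIO3 were present in all 3 lines. These levels were part of the choice of the genes. Across the 8 WTC11 libraries the lowest, median and highest level of MEG3 were 3.00, 6.13 and 10.1 TPM, against 0, 0.172 and 0.310 TPM in IMR90-4 and 0, 0.0136 and 0.210 TPM in H9. MEG8 had 11.9, 16.4 and 29.2 TPM in WTC11, against 0.0803, 0.379 and 0.760 TPM in IMR90-4 and 0.0729, 0.219 and 0.499 TPM in H9. RTL1 had 0.821, 1.54 and 3.05 TPM in WTC11, and at most 0.182 TPM in IMR90-4 and 0.242 TPM in H9. No library of the other lines reached the lowest WTC11 library for any of these 3 genes. The share of all genes with such a separation between the lines is not given here, so nothing is read from the count. Mean levels in WTC11 were 53.0 times those of the other 16 libraries for MEG3, 67.4 times for MEG8 and 34.2 times for RTL1. Reads counted for RTL1 may include RNA of the opposite strand, as the strand setting is not given. DLK1 had a median of 18.1 TPM in H9, 6.87 TPM in IMR90-4 and 2.79 TPM in WTC11, with ranges that overlapped and highest levels of 104, 47.5 and 64.3 TPM. DIO3 had medians of 2.21, 8.06 and 1.11 TPM, also with overlapping ranges.

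**Figure D3:**
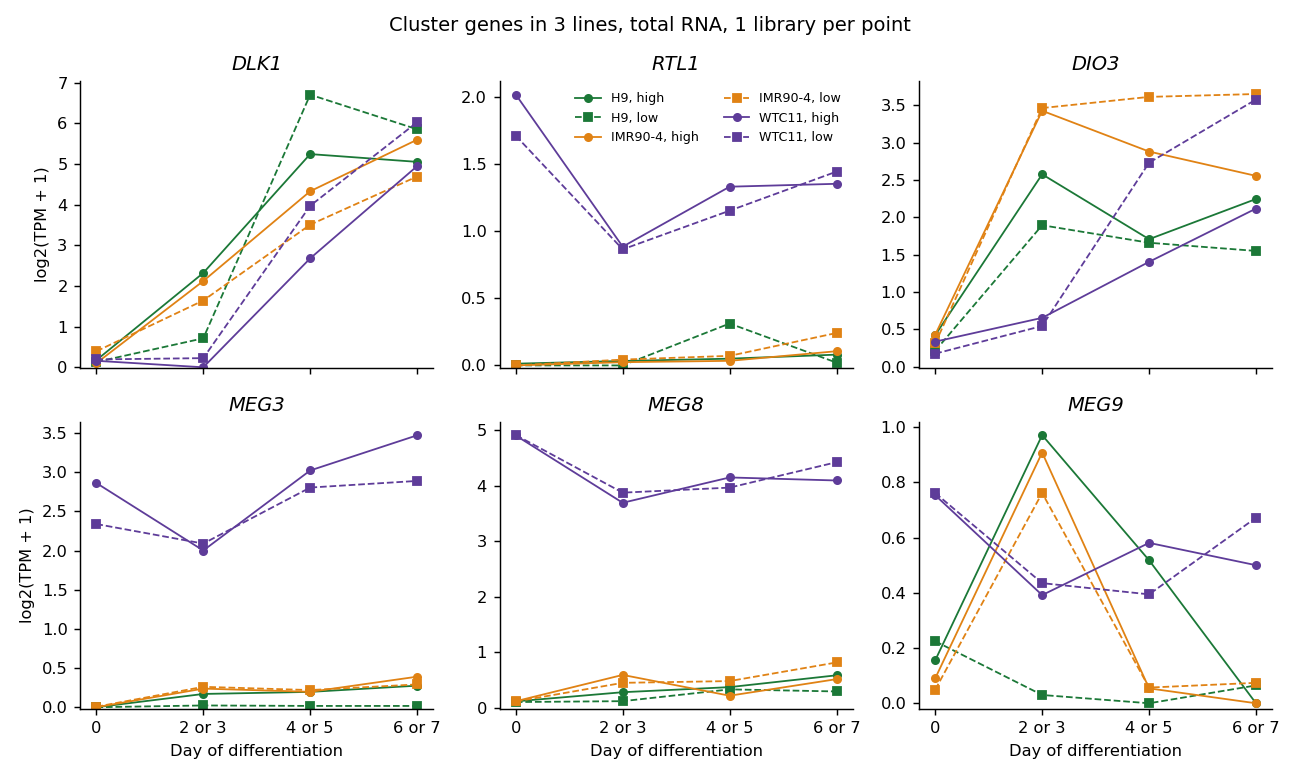
Level of each gene, as log2(TPM + 1), in the total RNA libraries by day, with 1 library per point. Colours are the lines, solid lines with circles are high purity and dashed lines with squares low purity. MEG3, MEG8 and RTL1 are near 0 in H9 and IMR90-4, while DLK1 and DIO3 end above their day 0 level in all 3 lines.

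MEG9 did not follow MEG3 and MEG8 in the lines. It was at 0.312 to 0.695 TPM in WTC11, with 13 to 41 reads. On day 3 it reached 0.960 TPM (52 reads) in the high class of H9, and 0.876 and 0.695 TPM (66 and 43 reads) in the high and low class of IMR90-4, while the low class of H9 had 1 read. By day 7 it was at 0 to 0.0526 TPM in these 4 differentiations. LOC105370670, an RNA gene that overlaps the end of MEG9, had more reads in IMR90-4 (212) and H9 (206) than in WTC11 (51), and reads of the 2 genes cannot be told apart where they overlap.

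The small RNA genes of the cluster also had most of their reads in WTC11. Over 8 libraries the 41 snoRNA genes held 16433 reads in WTC11, 281 in IMR90-4 and 142 in H9. All 41 had most reads in WTC11. SNORD114-20 alone held 8887 of the WTC11 reads, 161 in IMR90-4 and 69 in H9. The 54 hairpins held 1476 reads in WTC11, where 45 had any, 22 in IMR90-4 and 19 in H9. MIR381HG, a host RNA of such hairpins, had 63 reads in WTC11 and 0 in both other lines. DIO3OS, the opposite strand RNA beside DIO3, had 257 reads in WTC11, 549 in IMR90-4 and 189 in H9.

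**Figure D4:**
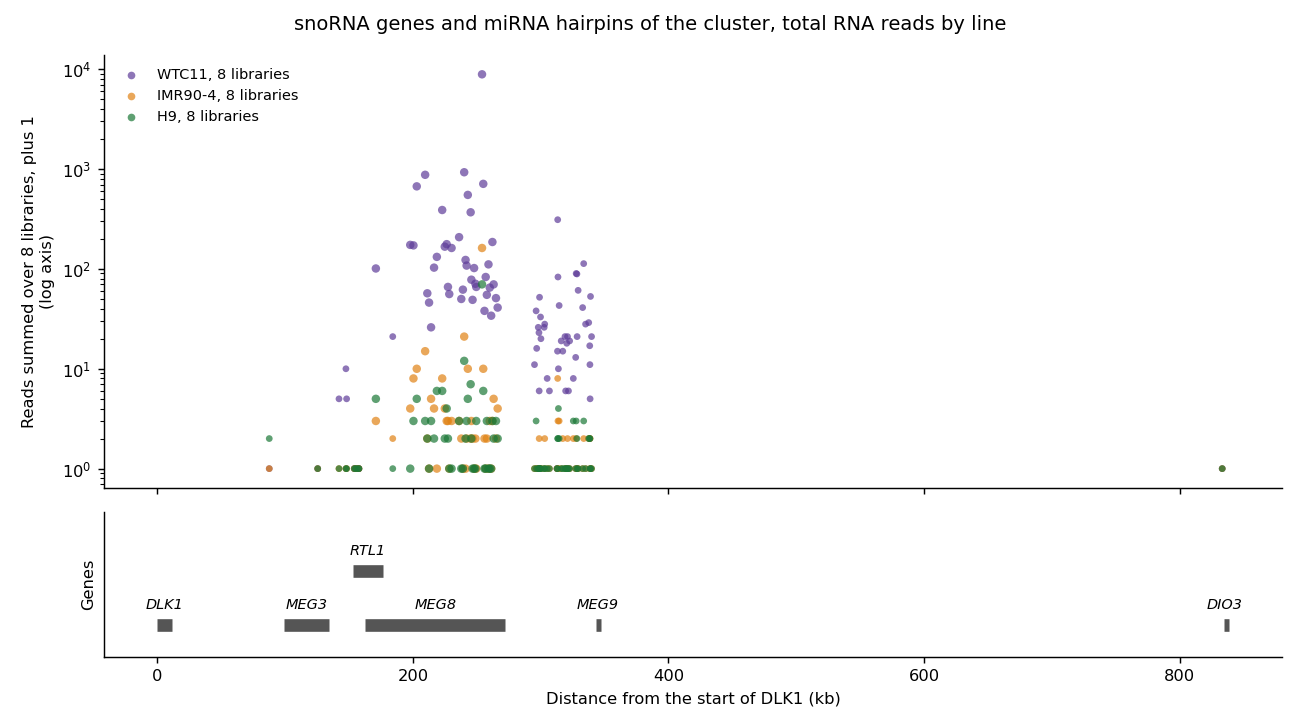
Reads on each snoRNA gene and miRNA hairpin, summed over the 8 total RNA libraries of a line plus 1, on a log axis, against the distance from the start of DLK1 in kb. Bars below are the spans of the 6 genes; points of WTC11 lie above those of IMR90-4 and H9 along MEG8 and the stretch beyond it, and the points at 1 over RTL1 are hairpins with 0 reads.

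In the total RNA libraries the rise of DLK1 was called up to day 4 or 5, and that of DIO3 only up to day 2 or 3. Levels in these libraries were part of the choice of the genes, so these rises are not independent of it. From day 0 to day 2 or 3 DIO3 rose in 6 of 6 differentiations, by 4.05 on the log2 scale (edgeR, adjusted p = 3.5e-05). DLK1 rose in 5 of 6, by 3.42 (adjusted p = 0.004). The exception was the high class of WTC11, with 0.117 TPM on day 0 and 0 on day 2. In the lines sampled on day 3 DLK1 reached 0.639 to 4.00 TPM. Called were 2 of the 6 genes, against 25.6% of all genes. Without IMR90-4 the DLK1 call was lost, at 2.76 (adjusted p = 0.0954), and with limma on TPM it was 1.03 (adjusted p = 0.077). From day 2 or 3 to day 4 or 5 DLK1 rose in 6 of 6, by 4.11 (edgeR, adjusted p = 0.0033), the only call of the 6, against 6.86% of all genes. DIO3 rose in 3 of 6 over these days, by 0.15 (edgeR, adjusted p = 0.865). From day 4 or 5 to day 6 or 7 none of the 6 was called by edgeR, against 3.72% of all genes. None had an unadjusted p under 0.05 there, and DESeq2 and limma on TPM also called 0. DLK1 and DIO3 each rose in 4 of 6 differentiations over these days.

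No difference between the purity classes was called for these genes across the 3 lines. By edgeR none of the 6 was called at any of the 4 stages, where 0% of 24810 genes were called, and the adjusted p ranged from 0.545 to 1. None of the 6 had an unadjusted p under 0.05, and DESeq2 and limma on TPM called none of them. Of all genes, 362, 1921, 1828 and 2916 had an unadjusted p under 0.05 at the 4 stages, and DESeq2 called 0, 78, 52 and 202. With 3 pairs a stage, a missing call does not show that the classes were alike.

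Within WTC11 the classes of the total RNA experiment did not keep the order of the multi-omic experiment. On day 6 DLK1 was at 29.9 TPM in the high class and 64.3 TPM in the low class, and on day 4 at 5.41 and 14.7 TPM. DIO3 was at 3.34 and 10.9 TPM on day 6. In the multi-omic wells of day 6 both genes were higher in the high class. The low class was at passage 69 in both experiments, and on day 6 DLK1 was at 27.2 to 86.0 TPM in poly(A) wells and 64.3 TPM in total RNA. The total RNA levels of RTL1 and MEG9 also lay within the range of the wells, at 1.72 and 0.593 TPM against 0.184 to 1.95 and 0 to 0.791 TPM. Those of the other genes lay outside it, with DIO3 at 1.47 to 2.58 against 10.9 TPM, MEG8 at 7.70 to 13.8 against 20.5 TPM and MEG3 at 11.7 to 19.2 against 6.41 TPM. On day 4 total RNA lay above the wells for DLK1 (14.7 against 7.48 to 10.5 TPM) and RTL1 (1.22 against 0.0730 to 0.413 TPM). It also did for MEG8 (14.6 against 4.49 to 6.05 TPM) and DIO3 (5.64 against 1.65 to 4.51 TPM). MEG3 and MEG9 lay within, at 5.99 against 5.08 to 6.78 and 0.314 against 0 to 0.393 TPM. The high class was at passage 52 in one and 81 in the other. MEG3 was higher in the high class on days 0, 4 and 6, at 6.28 against 4.06, 7.13 against 5.99 and 10.1 against 6.41 TPM, and lower on day 2, at 3.00 against 3.26 TPM. MEG8 was lower in the high class on day 6, at 16.1 against 20.5 TPM. Kit and differentiation differ between the experiments, as does passage for the high class, and these cannot be told apart.

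In H9 DLK1 was likewise lower in the high class on days 5 and 7, at 36.9 against 104 TPM and 32.2 against 56.9 TPM. In IMR90-4 it was higher, at 19.1 against 10.4 TPM and 47.5 against 24.9 TPM. DIO3 was higher in the high class of H9 at every stage, and lower in the high class of IMR90-4 from day 3 on, at 9.76 against 10.0, 6.37 against 11.2 and 4.88 against 11.6 TPM. Each of these values is from 1 library.

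The snoRNA genes within MEG8 had the same order of classes as MEG8 on days 0, 6 and 13 of the multi-omic experiment. Summed over 41 genes they stood on day 0 at 1316 ± 263 TPM in the high class and 784 ± 61.6 TPM in the low class (SD, n = 4 each). On day 6 they stood at 1173 ± 131 against 467 ± 82.5 TPM, and on day 13 at 590 ± 38.9 (n = 2) against 944 ± 134 TPM. No well of the lower class reached the other class on any of these days. The genes are short, and these sums rest on 62 to 528 reads per well.

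**Figure D5:**
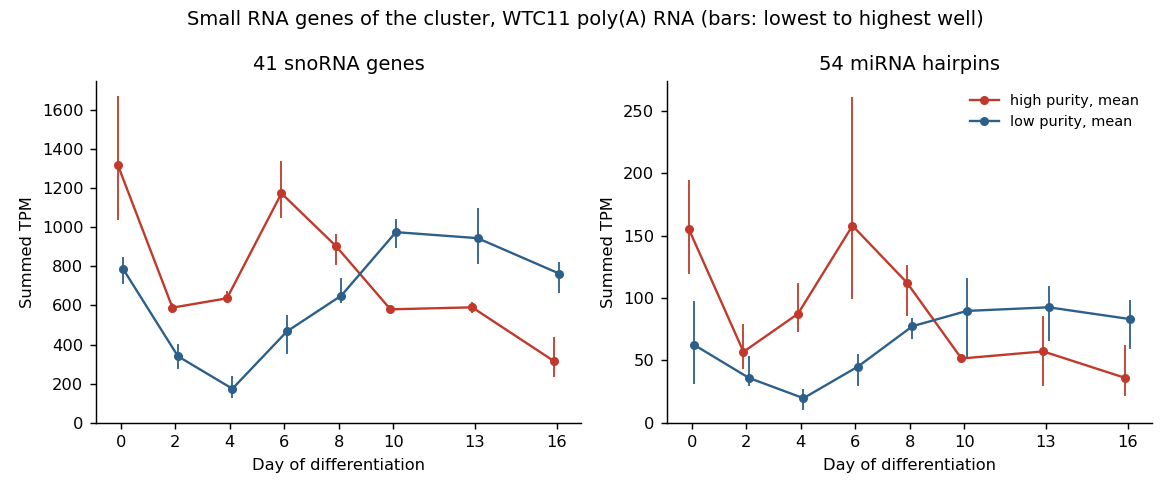
Summed TPM of the 41 snoRNA genes (left) and the 54 miRNA hairpins (right) by day in the multi-omic experiment. Points are class means and bars run from the lowest to the highest well; the high class is above on day 6 and the low class on day 13 in the snoRNA panel.

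Of 115 other RNAs listed for the cluster, 104 were in the tables and 89 were fitted in the multi-omic experiment. On day 0 limma called 6 as higher in the high class and 0 as lower, against 1.03% of all genes, with a median difference of 0.85 against 0.00 for all genes. The 2 largest were SNORD113-7 at 3.03 and SNORD114-22 at 2.81, with only 91 and 30 reads over all 56 multi-omic libraries. On day 2, against 5.34% of all genes, 2 were higher, SNORD113-4 at 3.23 and SNORD113-9 at 1.90, and 2 lower, MIR411 at -2.30 and MIR369 at -1.71. MIR411 and MIR369 had 24 and 9 reads over all multi-omic libraries. Fold changes of genes with so few reads are uncertain. On day 6, against 8.93%, 13 were higher and 0 lower, with a median of 0.92, led by SNORD112 at 2.81 and SNORD114-20 at 2.54. On day 8, against 12.3%, 6 were higher and 1 lower. On day 13, against 10.8%, 1 was higher and 5 lower, with a median of -0.46, led by SNORD114-17 at -3.32 and SNORD113-2 at -3.29. From day 0 to day 2, 16 fell and 0 rose in the high class, against 16.6% of all genes, and 15 fell and 1 rose in the low class, against 17.7%. On recovered reads 28 of these RNAs could be fitted. Of these edgeR called 1 as higher on day 0 and DESeq2 0, with 4 at an unadjusted p under 0.05 by DESeq2. Both tools called 2 as higher on day 2, 7 on day 6 and 6 on day 8, with 0 lower on these days. Calls over all genes also rose under alternative settings, from 2292 to between 3852 and 3905 on day 6. On day 8 they rose from 3159 to between 4961 and 5255. The shares of all genes for edgeR and DESeq2 are not given here, so nothing is read from these counts. On day 13 edgeR called 1 and DESeq2 2 as lower. From day 0 to day 2 both called 2 as higher in each class, with 9 lower by edgeR and 8 by DESeq2 in the high class and 9 lower by both in the low class. These genes lie in and beside the members and can share their reads, so they are no independent measure.

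The genes whose pattern over the 16 class and day means was most like that of MEG3 were mostly of the cluster itself. Among 13363 genes reaching 10 TPM, the 5 with the highest Pearson r were SNORD114-31 (0.93), SNORD114-7 (0.89), SNORD113-3 (0.86), NPDC1 (0.83) and SNORD114-2 (0.81). The means share libraries, and the snoRNAs have few reads. The 5 most like DLK1 were none of the cluster: CAMK2N1 (0.96), BMP10 (0.94), which codes for a cardiac growth factor, DCHS1 (0.94), LOC284600 (0.93) and KALRN (0.93). Days 4 and 16, on which the members were chosen, are among the 16 means, so likeness between members was in part set by the choice. Between members r was 0.82 for MEG8 and RTL1, 0.80 for DLK1 and DIO3, 0.78 for MEG3 and MEG8, 0.56 for MEG3 and DLK1 and -0.04 for MEG8 and DIO3. Reads of MEG8 and RTL1 cannot be told apart where the genes overlap, and RTL1 reads may include other RNA of the opposite strand.

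Of 8 protein-coding genes that flank the cluster within 500000 bases, 6 were fitted. WARS, a tRNA synthetase, was the only one called between classes, higher in the high class on day 2 (1.01) and lower on day 8 (-1.66). By limma 1.03%, 5.34%, 8.93%, 12.3% and 10.8% of all genes were called on days 0, 2, 6, 8 and 13. On days 0, 6 and 13 limma called 0 of the 6, with 3, 3 and 2 at an unadjusted p under 0.05, and edgeR and DESeq2 on recovered reads called 0. On day 2 DESeq2 gave 0 higher and 1 lower. The shares of all genes for edgeR and DESeq2 are not given here.

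Among 14 genes known to keep or remove imprints, 12 were fitted and limma called 0 of them between the classes on days 0, 2, 6, 8 and 13. Of all genes 1.03%, 5.34%, 8.93%, 12.3% and 10.8% were called. At an unadjusted p under 0.05 there were 4, 6, 5, 11 and 6 on these days. On recovered reads edgeR called 1 as lower on days 8 and 13, and DESeq2 1 as lower on days 2, 8 and 13. The shares of all genes for these 2 tools are not given here. From day 0 to day 2 DNMT3B, a DNA methyltransferase, fell by -2.22 in the high and -2.92 in the low class, and TET2, which oxidises methylated cytosine, rose by 2.07 and 1.59. In all, 2 of the 12 rose and 4 fell in the high class, against 16.6% of all genes called, and 1 rose and 4 fell in the low class, against 17.7%.

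DLK1 being related to Notch ligands, 15 genes of that pathway were also read, of which 12 were fitted. On day 6, against 8.93% of all genes, 4 were higher in the high class and 0 lower, with a median difference of 0.69 against 0.00 for all genes. The 2 largest were the ligand genes JAG1 at 2.03 and DLL3 at 1.42. On day 8, against 12.3%, 3 were higher and 2 lower, with NOTCH2, a receptor, at -1.79 and DLL4, a ligand, at 1.41. On day 13, against 10.8%, 3 were higher and 2 lower, with the target genes HEYL at -2.00 and HEY1 at 1.96. On day 2, against 5.34%, only HES1, a target, was called, at 1.40. On day 0, against 1.03% by limma, 0 were called by limma, edgeR or DESeq2, with 6, 5 and 5 at an unadjusted p under 0.05.

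All 8 genes of thyroid hormone transport, conversion and reception were fitted. On day 6, against 8.93% of all genes called, CRYM, which binds thyroid hormone in the cell, was higher in the high class at 1.36. SLCO1C1, a transporter, was lower at -2.42. On day 8, against 12.3%, CRYM was higher at 2.24 and DIO1, an activating deiodinase, lower at -1.10. DIO2, the other activating deiodinase, rose from day 2 to day 6 in both classes, by 2.07 and 1.23, the days over which DIO3 rose. THRA, a receptor, rose by 1.54 and 1.78 over the same days. Of all genes 18.2% were called over these days in the high class and 20.5% in the low class. On day 0 limma, edgeR and DESeq2 called 0 of the 8, with 5, 4 and 4 at an unadjusted p under 0.05. On day 13 limma called 0, with 6 at an unadjusted p under 0.05, whereas edgeR and DESeq2 on recovered reads each called 3 as higher and 2 as lower. Limma called 1.03% of all genes on day 0 and 10.8% on day 13, and the shares for edgeR and DESeq2 are not given here.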

How the data were processed

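Reads were aligned with STAR 2.5.3a to hg38 and counted with featureCounts 2.0.3, per the submitters' processing notes. The order of steps, the annotation, the strand setting and the TPM formula are not given in the sources used here. The authors deposited TPM and counts per gene for 56 multi-omic and 24 RNA-only libraries. The 36 broken lines of the RNA-only count table were left out.

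Multi-omic TPM were scaled by TMM and tested with limma 3.58.1 on log2(TPM + 1), with all 16 groups in 1 fit of the 25664 genes reaching 1 TPM in 3 libraries. RNA-only counts were tested with edgeR 4.0.16 (quasi-likelihood, TMM, filterByExpr) on 24810 genes with line and stage as blocks, and on 23848 genes with the 6 differentiations as blocks. R was 4.3.3. DESeq2 1.42.0 was an alternative. Whole reads were recovered from TPM within 0.1 reads for 37194 of 43388 genes. p-values were adjusted over all genes fitted. The fits were tested on simulated data.

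All 6 genes were named throughout. Of other lists the 2 largest called differences were named, and the 5 most similar genes for MEG3 and DLK1. Members and lists were chosen with earlier results of these data known. Wells of a group are separate wells of 1 differentiation. Sequences and positions are from RefSeq on GRCh38.p14, with 54 of 54 hairpins matched. No columns of other samples were used.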

Additional observations from a re-analysis of the deposited data

Results flagged for a closer look

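The change of DLK1 from day 0 to day 8 differed between the classes by 2.73, and from day 0 to day 13 by -1.85, by an interaction term in limma. From day 0 to day 13 the changes of MEG3, MEG8 and RTL1 differed by -1.14, -1.18 and -1.10.

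One high purity well of day 0, well 3, stood apart from the other wells of its group in DIO3, with 0.122 TPM from 1 read against 0 in the others. It was the only such value in 65 sets of 4 wells, each 1 gene in 1 class and day, of which chance alone would mark about 1 in 20.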

How the results depend on the processing

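With the deposited count table under its own column names, 22 differences changed sign. On day 0 they were MEG3 -0.82, MEG8 -0.72, MEG9 -0.47 and RTL1 -1.47. DIO3 was at -0.0007 on day 6. DIO3 was at -1.81 and DLK1 at -1.63 on day 8, and MEG8 was at 0.54 on day 13. On day 16 DIO3 was at 0.45, DLK1 at 2.25, MEG3 at 1.32, MEG8 at 1.26 and RTL1 at 1.80. From day 0 to 2 in the high class MEG8 was at 0.63 and RTL1 at 1.24. For day 6 against 2 DIO3 was at -1.68 and MEG3 at -0.27 in the high class, and DIO3 at -0.72 in the low class. For day 13 against 8 DIO3 was at 0.049 in the high class. The difference in change from day 0 to 13 was 0.72 for MEG3, 1.26 for MEG8 and 0.49 for RTL1. Members called under these names were 1, 4, 1 and 3 on days 0, 2, 6 and 8. They were 0 in the high and 1 in the low class for day 6 against 2, 2 in the low class for day 8 against 6, and 0 in the high and 3 in the low class for day 13 against 8. For the differences in change they were 3 to day 8 and 0 to day 13.

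On recovered reads edgeR and DESeq2 each called 1, 4, 3 and 2 members on days 0, 2, 8 and 13. Calls over all genes also rose on days 0, 2 and 8 under alternative settings. They went from 264 to between 643 and 764, from 1371 to between 2676 and 2734, and from 3159 to between 4961 and 5255. In the high class edgeR and DESeq2 called 4 members for day 2 against 0 and 1 for day 8 against 6, and in the low class 2 for day 13 against 8. With a pseudocount of 0.1 the calls were 1, 5, 2 and 2 on days 0, 2, 8 and 13. They were 5 for day 2 against 0 in the low class and 1 for day 13 against 8 in the high class. With no scaling there were 0 on day 2 and 1 from day 6 to 8 in the high class. In the RNA-only stages limma on TPM called 1 from stage 1 to 2, and DESeq2 2 from stage 2 to 3. The cause was not tested. Well numbers did not pair wells across classes: 0 of 24 pairs had correlated deviations over 0.1 (-0.018 to 0.032). With the well number as a block 2 members were called on day 8. Without single wells the calls were 1 to 2 on days 2, 8 and 13, 1 to 2 for day 2 against 0 and day 13 against 8 and 0 to 1 for day 8 against 6 in the high class, 2 to 3 for day 2 against 0 in the low class, and 3 to 5 for the difference in change to day 13. Without single lines they were 1 to 4 from stage 1 to 2.

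Of 824 differences of members under alternatives, 750 kept their direction and side of the threshold (without a test, stayed within the spread). Counts of all genes called moved by over 1.5 times in 17 comparisons, such as 264 to between 643 and 764 on day 0, and 886 to between 27 and 422 from stage 3 to 4. With no scaling the median of all genes lay at -0.18 on day 8, -0.13 on day 13, and -0.26 and -0.19 for the differences in change to days 8 and 13. Genes with few reads, MEG9, RTL1 and DIO3, are limited by depth.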
